A study of Homo sapiens with 14 samples.

Results

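Residues 201 to 400 of CFTR, the chloride channel mutated in cystic fibrosis, were described by their ribosome footprints. The region was chosen by residue number alone and holds 200 of the 1480 residues, 13.5% of the protein. It runs through the later transmembrane helices and a cytosolic loop of the first membrane-spanning domain to the border of the first nucleotide-binding domain (NBD1). The human gene spans 117480025 to 117668665 of chromosome 7 (GRCh38.p14). The footprints came from overexpressed constructs, so positions are residues of the protein.

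In ribosome profiling, nuclease digests the mRNA that is not covered by a ribosome, and the protected pieces are sequenced; reads at a codon then report how often ribosomes stood there. Slow codons, folding of the nascent chain and biases of library preparation can all raise the reads at a position. The helices of the membrane-spanning domains line the pore of CFTR, and their cytosolic loops reach the nucleotide-binding domains that gate it. Helices of this region are inserted into the membrane of the endoplasmic reticulum while the chain is still being made.

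All 14 libraries came from HEK293, an established line from human embryonic kidney, in which a CFTR construct was overexpressed, and all constructs encode CFTR with synonymous codons. WT (n = 5) has the native codons, and High-abc (n = 5) is a synonymous variant whose replaced codons the labels do not list. High-Leu558 (n = 2) has the codon of Leu558 changed from UUA to CUC. WT-Leu558-in-High-abc (n = 2; WT-Leu558 within High-abc in the labels) is High-abc with the WT codon at Leu558. Leu558 lies outside the region, and whether High-abc replaces a codon inside it is not given in the sources used here. A library held 2463 (High-abc replicate 3) to 32630 (WT replicate 2) CFTR reads, of which 326 to 5047 fell in the region. Between 105 and 187 of the 200 residues had a read in a library. Where a residue had 0 reads, up to 0.122% of CFTR reads was allowed by the depth of the shallowest library and up to 0.00919% by that of the deepest.

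The region as a whole carried slightly more footprints than its length would give in 13 of 14 libraries. Its share of CFTR reads in WT replicates 1 to 5 was 15.4%, 15.5%, 14.7%, 16.2% and 14.3%. In High-abc replicates 1 to 5 it was 14.9%, 13.6%, 13.2%, 15.6% and 16.2%. High-Leu558 gave 15.5% and 16.3%, and WT-Leu558-in-High-abc gave 15.5% and 16.5%. The groups overlapped, and the lowest values were those of High-abc replicates 2 and 3. The Wilson 95% interval was 12.0% to 14.6% in the shallowest library and 15.1% to 15.9% in the deepest; such intervals cover counting error only. Reads per residue in the region were 0.979 (High-abc replicate 3) to 1.22 times the mean of the whole protein.

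**Figure D1:**
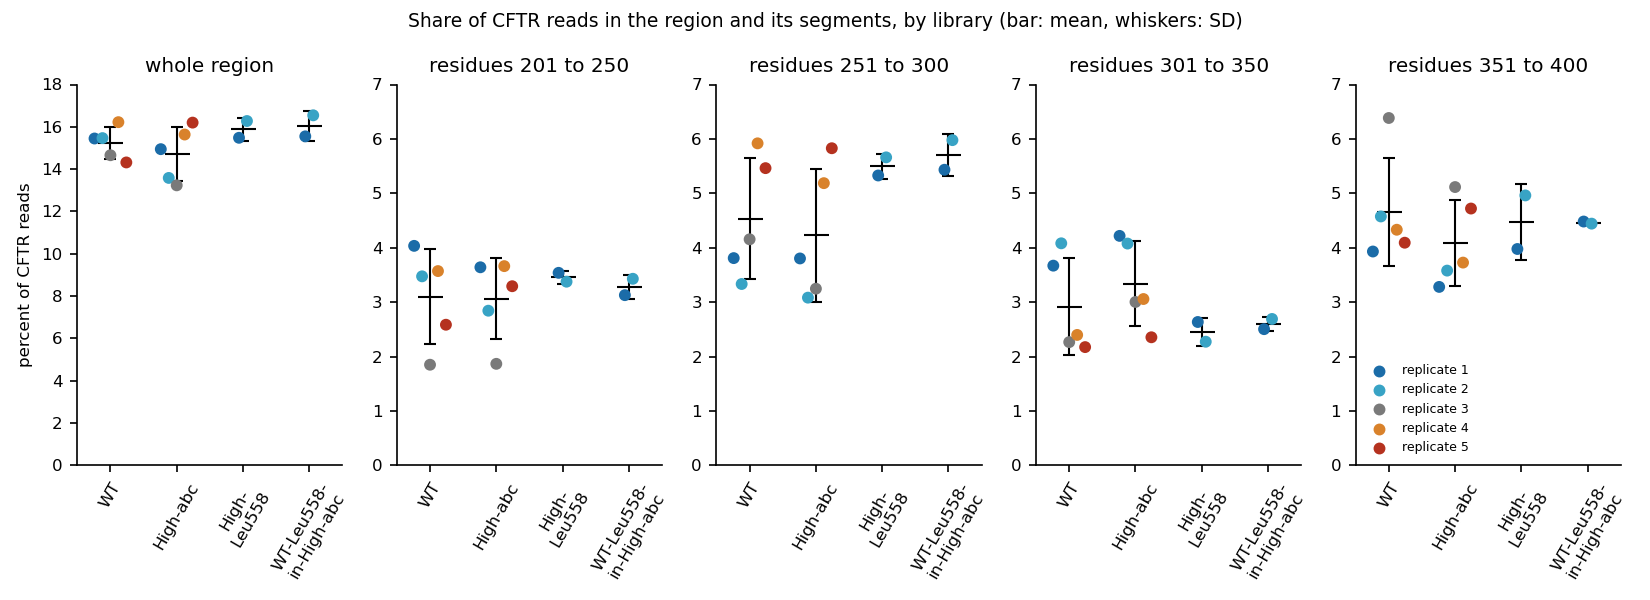
Percent of each library's CFTR reads in the whole region and in its 4 segments of 50 residues, by construct; points are libraries coloured by replicate number, bars are means and whiskers SDs. The constructs overlap in the whole region, between 13.2% and 16.5%, while in residues 251 to 300 and 301 to 350 the WT and High-abc points spread widely and the same colours lie at similar heights.

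No difference between constructs in the region's share passed the test. The mean of WT was 15.2% ± 0.749 and that of High-abc 14.7% ± 1.28 (SD, n = 5 each), which differ by -0.05 on the log2 scale (SE 0.06). High-Leu558 averaged 15.9% ± 0.560 and WT-Leu558-in-High-abc averaged 16.0% ± 0.703 (SD, n = 2 each). Against WT these gave log2 differences of 0.06 (SE 0.05) and 0.08 (SE 0.05), and WT-Leu558-in-High-abc exceeded High-abc by 0.13 (SE 0.07). The difference of High-abc from High-Leu558 was -0.11 (SE 0.07). In a two-sided exact permutation test of the library labels these 5 comparisons all had an adjusted p of 0.622 over 7 comparisons. A group of 2 against a group of 5 cannot give a p below 0.0952 in that test. Over all libraries, the High-abc background differed from the WT background by -0.02 (SE 0.04, exact permutation adjusted p = 0.785), and the native from the replaced Leu558 codon by 0.03 (SE 0.04, exact permutation adjusted p = 0.735). The direction of the background difference was not stable: without High-abc replicate 3 it was 0.000414 and without WT-Leu558-in-High-abc replicate 1 it was 0.00414. The comparisons share libraries, so they are not independent.

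Within the region, residues 251 to 300 and 351 to 400 held the most reads of WT and residues 301 to 350 the fewest. The 4 segments end at round residue numbers and only approximate helices and loops. In WT they held 3.10% ± 0.875, 4.54% ± 1.11, 2.92% ± 0.890 and 4.66% ± 0.993 of CFTR reads, in the order of the sequence (SD, n = 5). In High-abc they held 3.06% ± 0.746, 4.23% ± 1.22, 3.34% ± 0.787 and 4.09% ± 0.790 (SD, n = 5). The constructs with 2 libraries each had the highest means in residues 251 to 300, 5.49% ± 0.235 for High-Leu558 and 5.71% ± 0.385 for WT-Leu558-in-High-abc (SD, n = 2 each). In residues 301 to 350 they had the lowest, 2.46% ± 0.256 and 2.60% ± 0.133 (SD, n = 2). None of the 28 differences (4 segments in 7 comparisons) passed: the lowest unadjusted p of the exact permutation test was 0.190 and every adjusted p was 1. Comparisons of a group of 2 with a group of 5 could not pass, since that test gives them no p below 0.0952.

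Within a construct the libraries spread widely. Residues 251 to 300 held 3.81%, 3.33%, 4.16%, 5.92% and 5.46% of reads in WT replicates 1 to 5. The same residues held 3.80%, 3.08%, 3.25%, 5.19% and 5.83% in High-abc replicates 1 to 5. Replicates 4 and 5 of both constructs lay high, near the 5.33% and 5.66% of High-Leu558 and the 5.43% and 5.98% of WT-Leu558-in-High-abc. In residues 301 to 350 the shares of WT were 3.67%, 4.08%, 2.27%, 2.40% and 2.18%, and those of High-abc were 4.22%, 4.08%, 3.00%, 3.06% and 2.36%. Here replicates 1 and 2 of both constructs lay high and the groups overlapped. Compared within replicate numbers, High-abc held more of these reads than WT in 4 of 5 numbers, a mean log2 difference of 0.21 (SE 0.07; exact sign-flip permutation p = 0.125, where 5 pairs cannot go below 0.0625). The same comparison gave -0.19 (SE 0.10, exact permutation p = 0.125) in residues 351 to 400 and -0.11 (SE 0.08, exact permutation p = 0.188) in residues 251 to 300.

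Footprints in the region were concentrated on a few residues. Occupancy, the reads at a residue over the library's mean per residue, had a median of 0.575 over the region's residues and 0.513 over the rest of CFTR (means over 14 libraries). Every residue of the region had a read in some library, whereas 11 of the other 1280 had none in any. The 10 residues of the region with the highest mean occupancy over all libraries held 32.8% ± 5.24 of a library's reads in the region (SD, n = 14, 23.3% to 44.5%). The top 64 of the other 1280 residues, the same 5% and chosen in the same way, held 33.1% ± 2.45 of the reads there. The set was the same for every library, so a library's own top residues may hold more. A mean occupancy of 5 or more was reached by 8 of 200 residues in the region (4%) and 25 of 1280 elsewhere (1.95%). Residues 275, 292, 375, 388 and 395 (2.5% of the region) had at least 2 times the mean in every library, beside 19 of 1280 elsewhere (1.48%). At least 5 times in every library was reached by residue 375 alone in the region and by 5 of 1280 elsewhere.

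**Figure D2:**
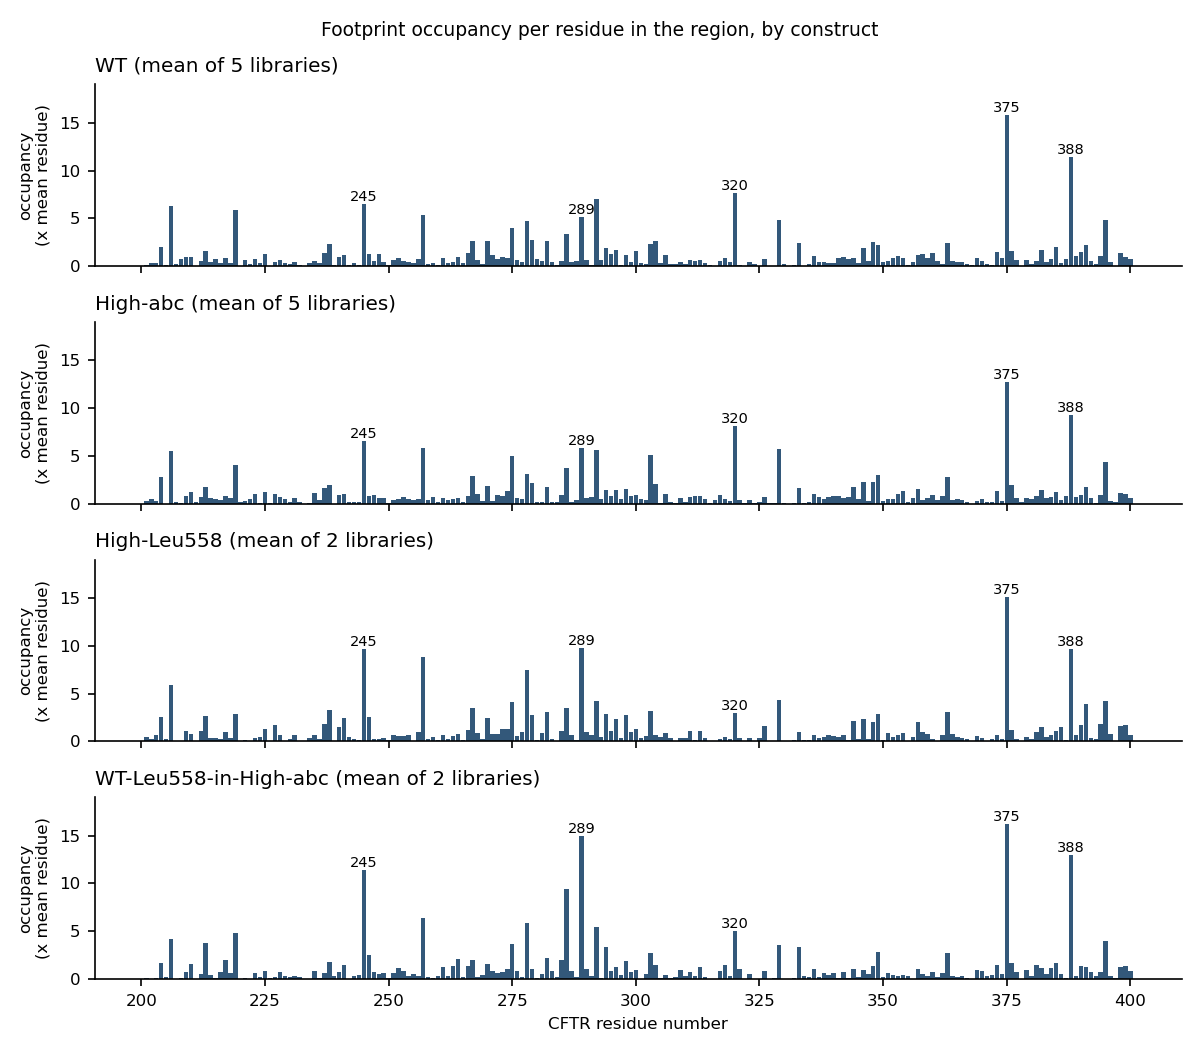
Mean occupancy of each residue from 201 to 400 (reads over the library's mean per residue) in the 4 constructs; bars start at 0 and the 5 most occupied residues over all libraries are numbered. Residue 375 is the highest bar in each construct, at 12.7 to 16.2 times the mean, and residue 320 is lower in the constructs with 2 libraries.

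Residue 375 was the most occupied residue of the region in 8 of 14 libraries and had rank 6 in all of CFTR. Its occupancy in WT replicates 1 to 5 was 10.3, 26.0, 18.5, 9.96 and 14.2, a mean of 15.8 ± 6.68 (SD, n = 5). In High-abc it was 12.0, 9.38, 12.6, 8.81 and 20.8, a mean of 12.7 ± 4.81 (SD, n = 5). High-Leu558 had 10.8 and 19.4, and WT-Leu558-in-High-abc had 16.6 and 15.9. The groups overlapped, with the highest value in WT replicate 2. The log2 change from WT to High-abc was -0.29 (SE 0.44, edgeR adjusted p = 0.996) and turned to 0.04 without WT replicate 2.

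Residue 388, rank 9 in CFTR, had an occupancy of 3.08, 14.2, 15.7, 11.5 and 12.4 in WT replicates 1 to 5. In High-abc it had 2.93, 11.7, 10.8, 7.84 and 13.1. The other constructs had 9.37 and 10.1 (High-Leu558) and 14.6 and 11.4 (WT-Leu558-in-High-abc). Replicate 1 stood low in both WT and High-abc, at 12 and 11 reads, and High-abc lay below WT in 4 of 5 numbers. The log2 change from WT to High-abc was -0.25 (SE 0.48, edgeR adjusted p = 0.996).

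Residue 245 had the widest range of the 12 most occupied residues, 24.1-fold from its lowest to its highest library. In WT replicates 1 to 5 its occupancy was 4.36, 3.45, 0.559, 12.0 and 11.9, and in High-abc 3.47, 3.30, 0.601, 12.5 and 12.9. It was 10.2 and 9.18 in High-Leu558 and 9.33 and 13.5 in WT-Leu558-in-High-abc. Replicate 3 had a single read there in both WT and High-abc, whose exact 95% Poisson intervals reach an occupancy of 3.12 and 3.35. Even so, replicates 4 and 5 of either construct lay above replicates 1, 2 and 3, and the construct means were nearly equal, 6.46 ± 5.21 and 6.55 ± 5.72 (SD, n = 5 each).

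Residue 289 was the most occupied residue of the region in WT-Leu558-in-High-abc replicate 2. Its occupancy was 1.03, 4.72, 6.15, 5.87 and 8.11 in WT replicates 1 to 5, and High-abc had 0.800, 3.30, 2.40, 5.92 and 17.0. High-Leu558 had 6.07 and 13.6, and WT-Leu558-in-High-abc 11.6 and 18.2. The last 2 values lay above all 5 of WT but on either side of High-abc replicate 5. The log2 change from WT to High-abc was 0.33 (SE 0.56, edgeR adjusted p = 0.996); it was -0.61 without High-abc replicate 5 and -0.00288 without WT replicate 1.

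Residue 320 led the region in High-abc replicates 1 and 2. Its occupancy in WT replicates 1 to 5 was 10.8, 19.96, 1.12, 3.06 and 3.30, and in High-abc 12.5, 16.5, 1.80, 5.64 and 3.99. High-Leu558 had 2.62 and 3.35 and WT-Leu558-in-High-abc 5.60 and 4.50, within the range of the other constructs. Replicates 1 and 2 of WT and High-abc were thus the high libraries at residue 320, and replicates 4 and 5 the high libraries at residue 245. High-abc was above WT in 4 of 5 numbers at residue 320, and the log2 change, 0.05 (SE 0.57, edgeR adjusted p = 0.996), turned to -0.51 without High-abc replicate 2, and below 0 also without WT replicate 3, 4 or 5, High-abc replicate 1 or either library of the constructs with 2 libraries.

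Residues 206 and 219 resembled residue 320 in which libraries were high. Residue 206 had an occupancy of 11.0, 9.89, 1.68, 5.36 and 3.30 in WT replicates 1 to 5 and of 9.07, 8.11, 0.601, 4.95 and 4.73 in High-abc. At residue 219 WT had 10.5, 13.4, 1.12, 3.06 and 1.52, and High-abc 7.20, 6.85, 0.601, 1.79 and 3.84. At both residues replicates 1 and 2 were high and replicate 3 low in both constructs. Residue 395 was the most even, between 3.61 and 6.90 over all 14 libraries. At residue 278 High-abc lay below WT in 5 of 5 numbers, with means of 3.16 ± 2.31 and 4.68 ± 1.88 (SD, n = 5 each), but the log2 change of -0.38 (SE 0.52) did not pass (edgeR adjusted p = 0.996), and replicate 3 of High-abc rested on 1 read there.

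The remaining members of the 12 were residues 257, 292 and 329, with mean occupancies of 6.19, 5.93 and 4.90 over all libraries. The next residues in order, just outside the 12, were 286 (4.38), 275 (4.31) and 303 (3.50). Most of the 12 were narrow: the residues directly before and after them held a median of 6.34% of the peak's mean occupancy, from 1.46% to 48.7%. The highest of these was residue 279, after residue 278. No log2 change from WT to High-abc at the 12 residues passed (edgeR adjusted p = 0.996 at each), and its direction turned without a single library at residues 206, 219, 245, 257, 289, 320, 329, 375 and 395. It turned at residue 206 without WT replicate 1 or 2 or High-abc replicate 3, and at residue 245 without WT replicate 1, 2 or 3 or High-abc replicate 4 or 5. At residues 219, 257, 329 and 395 it turned without WT replicate 2, High-abc replicate 1, WT replicate 5 and WT replicate 4, in this order. These fits have no term for the replicate number, and leaving out a library also leaves its number without a pair. In a fit of WT and High-abc alone with the number as block, no change at the 12 residues passed either. At residue 320 it was 0.33 there (SE 0.21, edgeR adjusted p = 0.882).

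**Figure D3:**
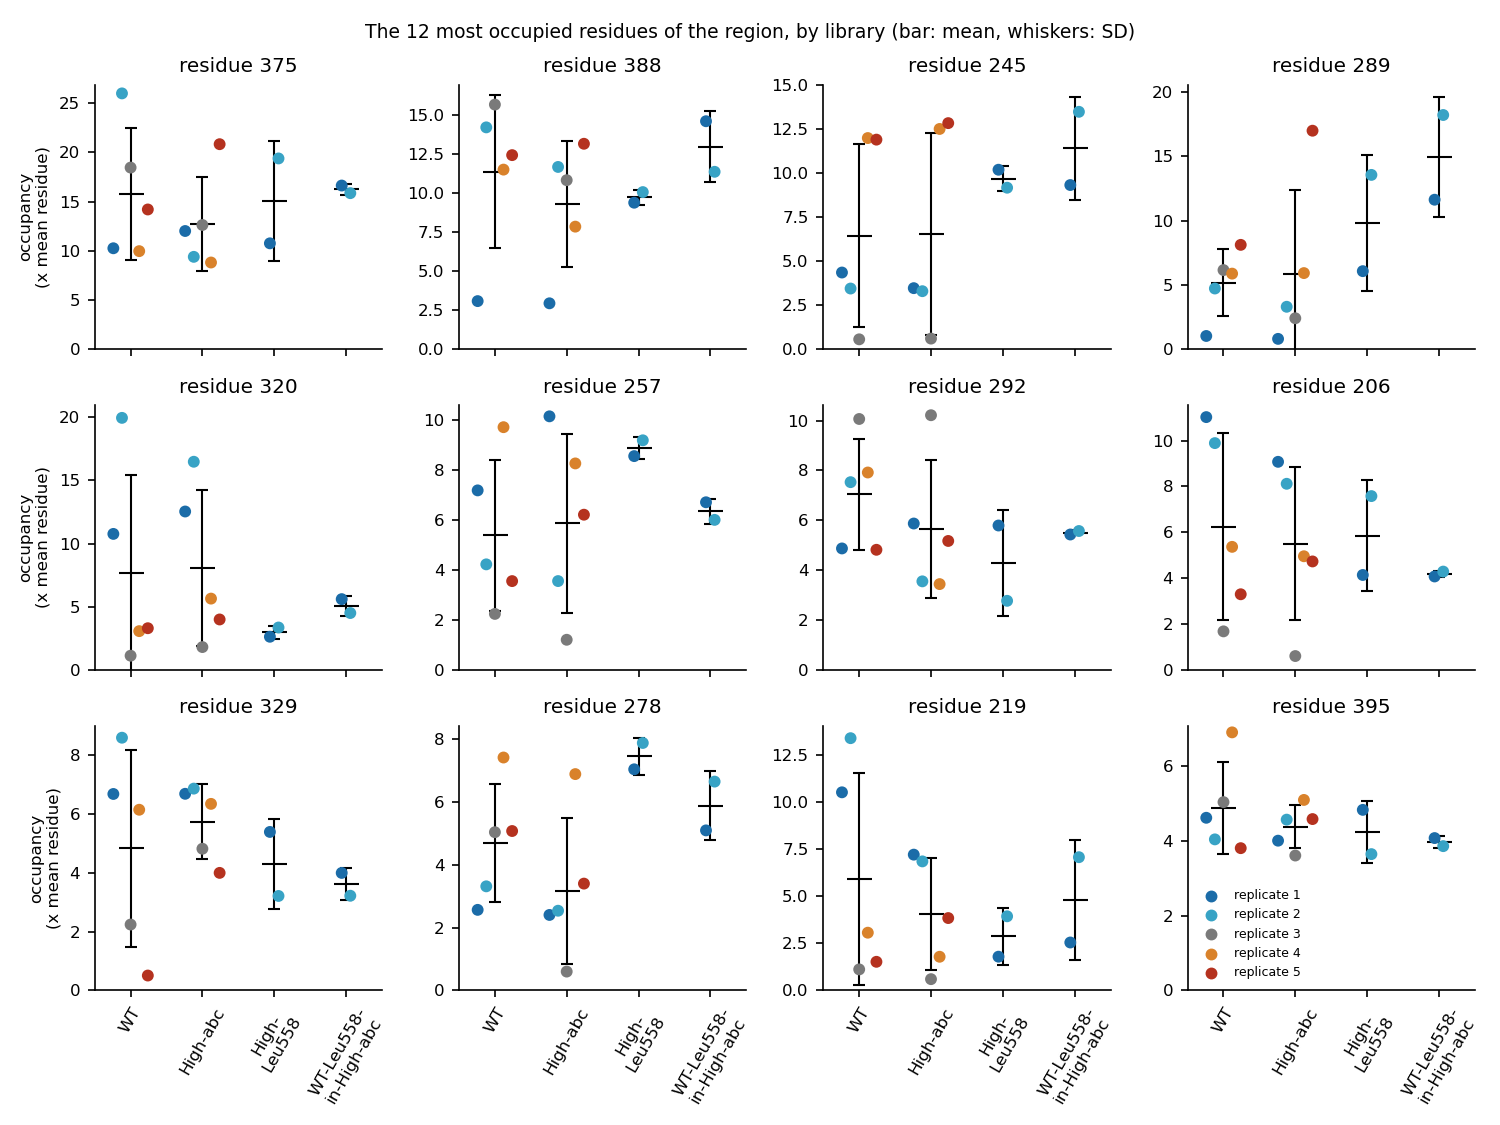
Occupancy of the 12 most occupied residues of the region (reads over the library's mean per residue) by construct; points are libraries coloured by replicate number, bars are means and whiskers SDs, cut at 0. WT and High-abc points of the same colour lie close together at residue 245 (replicates 4 and 5 high), residue 320 (replicates 1 and 2 high) and residue 388 (replicate 1 low).

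The replicate number, which the labels give without saying what libraries of the same number share, tracked these profiles more closely than the construct. Over the 10 libraries of WT and High-abc, the number accounted for a median of 76.3% of the variance of log2 read share in the 20 windows of 10 residues in the region. The construct accounted for 3.11%. The number has 4 degrees of freedom and the construct 1, of 9 in all, so that with no effect of either they would take on average 44.4% and 11.1%. Per degree of freedom the number's part was the larger in 19 of the region's 20 windows, the exception being window 301 to 310 (78.4% and 19.9% before that division). It was the larger in 104 of 124 windows elsewhere, where the medians were 75.7% and 2.52%. At the 12 most occupied residues the number accounted for a median of 89.1% (44.3% to 99.7%) and the construct for 2.18%, with 0.5 reads added before the log. Per degree of freedom the number's part was the larger at 11 of the 12, residue 278 excepted. WT and High-abc had their lowest value in the same replicate number at 9 of the 12 residues and their highest at 7. At residues 206, 219, 245, 257 and 320 the shared lowest was replicate 3, the shallowest of both constructs, with 1 to 4 reads there.

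Segments repeated this more strongly than the region as a whole. The number accounted for 92.2%, 92.3%, 87.1% and 72.9% of the variance of the 4 segments' log2 shares, and for 48.3% of that of the whole region, which is near the 44.4% of no effect. In both constructs replicates 1 and 2 lay above replicates 4 and 5 in residues 301 to 350 and below them in residues 251 to 300. Depth moved with the number in part: replicates 3 were the shallowest of both constructs, at 2647 and 2463 reads, and whether depth has a part in the pattern was not tested.

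**Figure D4:**
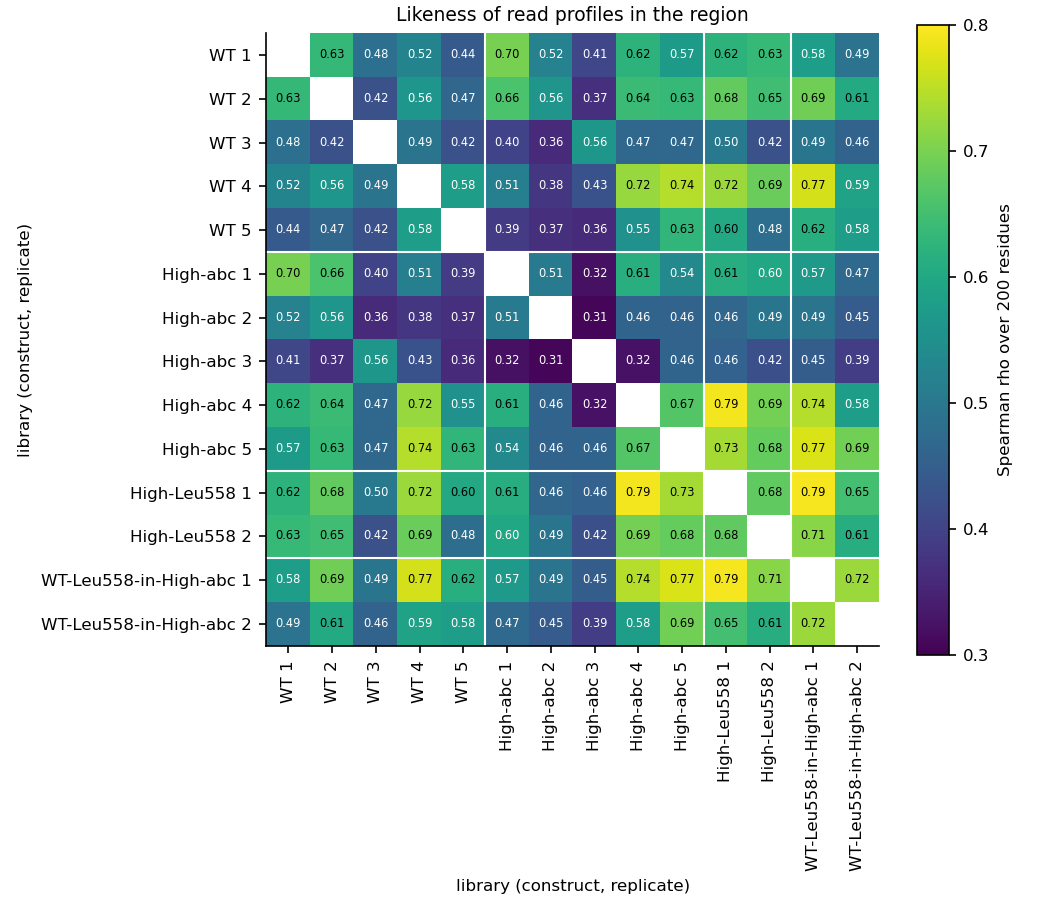
Spearman correlation of read counts over the 200 residues of the region for each pair of the 14 libraries; white lines separate the constructs and the colour scale runs from 0.3 to 0.8. Same-numbered WT and High-abc libraries reach 0.56 to 0.72. High-abc replicates 4 and 5 and WT replicate 4 resemble the libraries of the constructs with 2 libraries (0.58 to 0.79). WT replicate 2 lies within that range, at 0.61 to 0.69.

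Whole profiles showed the same order. Spearman correlations over the 200 residues averaged 0.635 (0.561 to 0.722) between WT and High-abc libraries of the same number, as a description across residues of libraries that differ in depth. Libraries of different numbers averaged 0.493 (0.360 to 0.745) between these constructs and 0.485 (0.307 to 0.667) within a construct. The ranges overlapped: WT replicate 4 with High-abc replicate 5 gave the 0.745, above every same-numbered pair. The High-Leu558 libraries correlated at 0.678 with each other, those of WT-Leu558-in-High-abc at 0.724, and the 2 constructs at a mean of 0.691. The libraries of these constructs, numbered 1 and 2 in the labels, correlated with replicates 1 and 2 of WT and High-abc at means of 0.572 and 0.565. With replicates 4 and 5 they correlated at 0.697 and 0.645. The part of this likeness in the differences of both constructs from WT and High-abc was not tested.

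Tested residue by residue without the replicate number as a term, no position of the region passed in any comparison of constructs. Of its 200 residues 44 had enough reads to be tested, 22% of the region holding on average 65.4% of its reads, and all of the 12 above were among them. edgeR's quasi-likelihood test with Benjamini-Hochberg adjustment at 0.05 called 0 of the 44 in High-abc against WT, where 0.637% of all 314 residues tested were called. It called 0 of 44 in High-Leu558 against WT (0.318% of all) and in High-abc against High-Leu558 (0.318%). For WT-Leu558-in-High-abc the count was 0 relative to High-abc (0.637% of all) and relative to WT (0%). The count was 0 as well for the background, High-abc against WT (1.27% of all), and for the Leu558 codon, native against replaced (0.637%). At these rates less than 1 of 44 would be called, so counts of 0 do not set the region apart. An unadjusted edgeR p under 0.05 was reached by 2 of the 44 in WT-Leu558-in-High-abc relative to WT, beside 16 of all 314 residues. It was reached by 1 each in High-abc against WT (16 of all), High-Leu558 against WT (11) and the codon comparison (7). In the other 3 it was reached by 0 of the 44 and by 12 to 14 of all 314. DESeq2 called 0 in all 7. A replicate block changed the call in the 4 comparisons with a group of 2, whose numbers were not shown to pair with those of WT and High-abc. It called 5 to 8 of the 44 there, among them residue 289 in WT-Leu558-in-High-abc relative to WT (log2 change 2.59, SE 0.41, edgeR adjusted p = 5.53e-05). That block matches WT-Leu558-in-High-abc to WT replicates 1 and 2, the lowest WT libraries at residue 289 (occupancy 1.03 and 4.72). The share called over all of CFTR with the block was 6.05% to 9.55% in these comparisons.

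Windows of 10 residues gave more reads per test and, without that block, the same count. edgeR called 0 of the region's 20 windows in High-abc against WT, in High-Leu558 against WT and for the native over the replaced codon, where 0.694% of all 144 windows were called in each. In the other 4 comparisons 0% of the 144 were called. Only WT-Leu558-in-High-abc relative to WT had a window of the region with an unadjusted edgeR p under 0.05, 1 of 20, beside 5 of all 144. In the other comparisons 4 to 8 of all 144 windows reached such a p. DESeq2 called 0 of the region's windows in all 7. A replicate block called 3 to 6 of the 20 in the 4 comparisons with a group of 2, where it called 12.5% to 18.1% of all windows. Numbers of the groups of 2 were not shown to pair with those of WT and High-abc. The median log2 change of the region's windows from WT to High-abc was 0.00164 (10 above 0 and 10 below), beside 0.02 for all windows. The spread between libraries of a group that edgeR estimated over all of CFTR, beyond counting error, was a coefficient of variation of 53.4% for residues and 31.2% for windows.

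In WT the highest windows were 371 to 380 with 1.45% ± 0.554 of CFTR reads, 381 to 390 with 1.37% ± 0.420 and 271 to 280 with 1.14% ± 0.322 (SD, n = 5). They hold residues 375, 388 and 278 and had ranks 8, 10 and 13 of 144. The lowest were 221 to 230 with 0.325% ± 0.122, 331 to 340 with 0.365% ± 0.154 and 361 to 370 with 0.427% ± 0.0512 (SD, n = 5). The last of these was nearly constant, from 0.344% to 0.521% over all 14 libraries. The same 3 windows were the highest and the same 3 the lowest in High-abc.

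**Figure D5:**
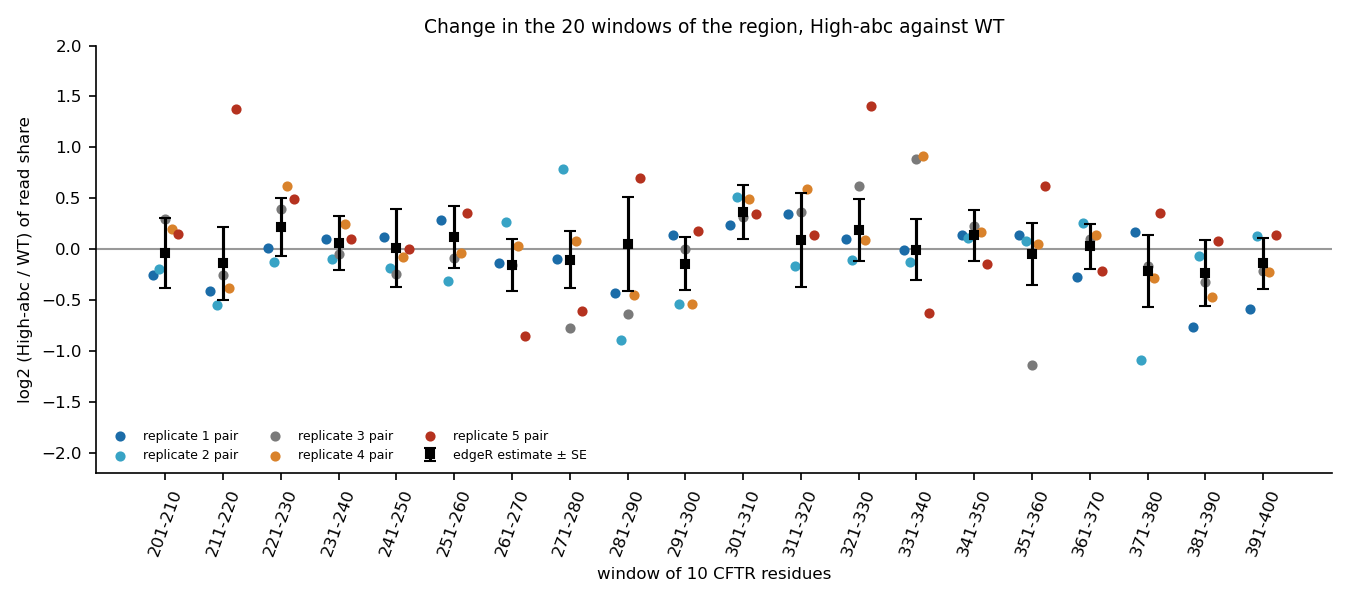
Log2 ratio of read share, High-abc over WT, in the 20 windows of 10 residues of the region; coloured points are the 5 pairs of libraries with the same replicate number, and black squares with whiskers are edgeR's estimates ± SE. Estimates lie between -0.24 and 0.36, and in window 301 to 310 all 5 points lie above 0.

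The windows with the smallest p in High-abc against WT were 301 to 310, 221 to 230 and 381 to 390, with log2 changes of 0.36 (SE 0.26), 0.22 and -0.24, none of which passed (edgeR adjusted p = 0.995 for the first). Window 301 to 310 held 0.675%, 0.539%, 0.718%, 0.362% and 0.394% in WT replicates 1 to 5 and 0.793%, 0.771%, 0.893%, 0.511% and 0.499% in High-abc. High-abc was higher in 5 of 5 numbers although the groups overlapped. In a fit of WT and High-abc alone with the replicate number as block, the log2 change was 0.41 (SE 0.16) with an unadjusted p of 0.0273, and it did not pass either (edgeR adjusted p = 0.389).

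Window 281 to 290, which holds residues 286 and 289, had the largest log2 changes of the windows with the smallest p. WT replicates 1 to 5 held 0.485%, 0.729%, 0.756%, 1.29% and 1.58% there, and High-abc replicates held 0.361%, 0.394%, 0.487%, 0.948% and 2.57%. High-Leu558 had 1.06% and 1.69% and WT-Leu558-in-High-abc 1.87% and 2.50%. WT-Leu558-in-High-abc lay above every WT library and above all of High-abc but replicate 5. It differed from WT by 1.20 on the log2 scale (SE 0.57, unadjusted p = 0.0475, edgeR adjusted p = 0.858) and from High-abc by 1.15 (SE 0.57, unadjusted p = 0.0553, edgeR adjusted p = 0.703). With High-abc replicate 5 left out, the difference from High-abc became 1.98 (SE 0.45) and passed (edgeR adjusted p = 0.0415), while leaving out any other library did not make it pass. It also passed with all libraries and a replicate block, against High-abc (2.23, SE 0.30, edgeR adjusted p = 0.000109) and against WT (2.01, SE 0.28, edgeR adjusted p = 0.000191). The block matches the groups of 2 to replicates 1 and 2 of WT and High-abc, the lowest libraries of each in this window. Numbers of the groups of 2 were not shown to pair, so these passes rest on a pairing that was not shown.

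Window 311 to 320, which ends at residue 320, held 0.475% and 0.414% in High-Leu558. WT replicates 1 to 5 held 1.11%, 1.75%, 0.189%, 0.431% and 0.480%, and High-abc 1.41%, 1.56%, 0.244%, 0.651% and 0.529%. High-Leu558 differed from WT by -1.01 on the log2 scale (SE 0.65, edgeR adjusted p = 0.936), and High-abc from High-Leu558 by 1.10 (edgeR adjusted p = 0.907). Both groups of 5 spread over both sides of High-Leu558. With a replicate block both differences passed, at -1.71 (edgeR adjusted p = 0.000639) and 1.92 (edgeR adjusted p = 0.000405). That block matches High-Leu558 to replicates 1 and 2 of WT and High-abc, the highest libraries of each in this window, a pairing that was not shown. The other windows named for these comparisons, 331 to 340, 251 to 260 and 301 to 310, had log2 changes no larger than 0.57 in size and did not pass; with the block, window 301 to 310 passed in High-abc against High-Leu558 (0.80, edgeR adjusted p = 0.0224).

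For the remaining comparisons the smallest p fell in further windows, none of which passed without the block. For WT-Leu558-in-High-abc relative to High-abc these were 341 to 350 (log2 change -0.61) and 221 to 230 (-0.66), and relative to WT 351 to 360 (-0.72) and 241 to 250 (0.69). With the block, window 221 to 230 passed relative to High-abc (-0.997, edgeR adjusted p = 0.0188) and window 241 to 250 relative to WT (1.498, edgeR adjusted p = 0.000282). Both passes rest on matching the construct to replicates 1 and 2, a pairing that was not shown. In window 241 to 250 these were the lowest WT libraries, at 0.433% and 0.429%. WT replicates 4 and 5 held 1.36% and 1.20% there, near the 1.19% and 1.30% of WT-Leu558-in-High-abc. For the background they were 331 to 340 (0.41, edgeR adjusted p = 0.989), 231 to 240 (-0.29) and 391 to 400 (-0.27). For the Leu558 codon, native against replaced, they were 231 to 240 (-0.35, edgeR adjusted p = 0.925), 331 to 340 (0.42) and 221 to 230 (-0.33).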

How the data were processed

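Each deposited file gives, per the file headers, the read count at a CFTR residue and the percent of the CFTR reads of that library. The deposited counts are whole numbers, and the deposited percent equalled the recomputed percent within 0.0005, so only the counts were analysed. Residues without a line were taken as 0. HISAT2 and hg38 are named, with no version or role, in the submitters' processing notes. Not given in the sources used here were the mapped sequence, the read lengths and how reads were placed. Positions are those assigned by the authors. No molecular identifiers are mentioned, so intervals cover counting error only.

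Shares were compared on the log2 scale by two-sided exact permutation of library labels (within strata for the pooled contrasts), with Benjamini-Hochberg adjustment over 7 comparisons of the region and 28 of its segments (scipy 1.17.1, numpy 2.4.6, pandas 2.3.3 and matplotlib 3.10.9 in Python 3.11.15). Residues 21 to 1460 and their windows of 10 entered edgeR 4.0.16 in R 4.3.3 with limma 3.58.1 (TMM, filterByExpr, glmQLFit, glmQLFTest; all libraries, 1 term per group), adjusted over the whole protein; 20 residues at either end were not used. DESeq2 1.42.0 was an alternative. The edgeR script was tested on simulated data. No 2 libraries held identical counts.

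Members and lists were chosen with earlier results of these data known. The rule for names took the region, its 4 segments, its 3 highest and 3 lowest windows in WT, its 12 most occupied residues, anything past an adjusted p of 0.05 and, per comparison, the 3 windows with the smallest p. Residues 275, 279, 286 and 303 were named after their values were seen. A planned description by amino acid was not made, since no protein sequence was used here.

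The labels do not say if replicates were separate cultures; p-values therefore measure the spread among these libraries alone, which may be technical. Deviations of window shares from the group mean correlated between same-numbered WT and High-abc libraries (r = 0.664, 0.627, 0.693, 0.681 and 0.450 over all windows for numbers 1 to 5; 0.885, 0.738, 0.852, 0.851 and 0.538 in the region), against medians of -0.202 and -0.276 for other pairs. Deviations from the group mean cancel within each group, so positive values for same-numbered pairs push those of other pairs below zero. The medians of other pairs are therefore no separate baseline. On the ground of the same-number correlations, which is in the data and not in the labels, numbers were treated as pairs of WT and High-abc libraries. In the groups of 2 the numbers were not shown to pair. Alternatives were other scalings, filters, borders and windows, the most covered 1% of residues left out, the replicate block, and leaving out single libraries.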

Additional observations from a re-analysis of the deposited data

Results flagged for a closer look

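In 76 sets of 5 libraries (depth, region, segments, windows and the most occupied residues in WT and High-abc), 5 had a library whose gap to the nearest other exceeded Dixon's 95% critical value; chance gives about 1 in 20. WT replicate 2 had 32630 CFTR reads, against 2647 to 5839 in the other WT libraries. In residues 351 to 400, WT replicate 3 held 6.38% of reads and the other WT libraries 3.93% to 4.58%. Window 271 to 280 held 0.576% in WT replicate 2 and 1.18% to 1.34% in the others. Window 281 to 290 held 2.57% in High-abc replicate 5 and 0.361% to 0.948% in the other High-abc libraries; this is the library without which the window passed for WT-Leu558-in-High-abc relative to High-abc. Window 291 to 300 held 0.702% in High-abc replicate 2 and 0.985% to 1.10% in the others.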

How the results depend on the processing

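Over all alternatives of the region's share no comparison passed (lowest adjusted p 0.373). Comparisons of a group of 2 with a group of 5 could not pass, since the exact permutation test gives them no p below 0.0952. The background difference turned to 0.0103 with NBD1 left out of the total, 0.00337 without the most covered 1% of residues and 0.00812 with borders moved towards the C-terminus. With each library left out in turn, log2 differences of the region's share ranged from -0.0870 to -0.0142 (High-abc against WT), 0.0258 to 0.0978 (High-Leu558 against WT), 0.0835 to 0.173 and 0.0321 to 0.121 (WT-Leu558-in-High-abc relative to High-abc and to WT), -0.149 to -0.0760 (High-abc against High-Leu558), -0.0405 to 0.00414 (background) and 0.0109 to 0.0555 (native codon).

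Among segments, 201 to 250 turned in High-abc against WT without the most covered 1% (0.00622) and with borders moved towards the N-terminus (0.0515), which also turned it in WT-Leu558-in-High-abc relative to High-abc (-0.142) and WT (-0.0905), 251 to 300 for the background (0.00491) and 301 to 350 for the native codon (0.000845). Without the most covered 1%, 351 to 400 turned in WT-Leu558-in-High-abc relative to High-abc (-0.0605) and for the native codon (-0.0299). Leaving out a library, segment 201 to 250 ranged from -0.181 to 0.160 (High-abc against WT), -0.0291 to 0.214 and -0.0422 to 0.239 (WT-Leu558-in-High-abc relative to High-abc and to WT), -0.129 to 0.0413 (background) and -0.119 to 0.0517 (native codon); 251 to 300 from -0.0937 to 0.0222 (background); 301 to 350 from -0.210 to 0.0166 (WT-Leu558-in-High-abc relative to WT); and 351 to 400 from -0.206 to 0.113 (High-Leu558 against WT), -0.0962 to 0.0787 (WT-Leu558-in-High-abc relative to WT) and -0.302 to 0.0174 (High-abc against High-Leu558). The cause was not tested.

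For High-abc against WT, residue 245 turned at a minimum mean of 20 reads (-0.0298) and residue 320 with DESeq2's size factors (-0.00398) and no filter (-0.232). Leaving out a library gave ranges of -0.525 to 0.0390 (residue 375), -0.267 to 0.431 (245), -0.608 to 0.582 (289), -0.505 to 0.889 (320), -0.0834 to 0.458 (257), -0.422 to 0.121 (206), -0.109 to 0.607 (329), -0.934 to 0.0650 (219) and -0.200 to 0.0468 (395). Residues called in the region stayed at 0 in all 7 comparisons; windows called ranged from 0 to 1 in WT-Leu558-in-High-abc relative to High-abc and were 0 in the other 6.

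With a replicate block, 0 residues and 0 windows of the region passed for High-abc over WT and in both pooled contrasts, as without it. Over all of CFTR the block then called 1.27% of residues and 1.39% of windows for High-abc against WT. For the background it called 1.91% and 0.694%, and for the native codon 0.955% and 1.39%. Compared within replicate numbers, no share of the region or its segments could pass. With 5 pairs the exact sign-flip permutation p cannot go below 0.0625, so this comparison cannot decide the question. In the comparisons with a group of 2, whose numbers were not shown to pair, the replicate block moved the residues called in the region to 5 (High-Leu558 against WT), 6 (WT-Leu558-in-High-abc relative to High-abc), 8 (WT-Leu558-in-High-abc relative to WT) and 6 (High-abc against High-Leu558), and the windows to 3, 6, 4 and 4. Over all of CFTR it called 19, 28, 30 and 24 of 314 residues and 18, 26, 21 and 22 of 144 windows there.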
